A study of Mus musculus with 4 samples.

Results

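The 10 genes described here are the lipid-handling genes of macrophages Apoe, Apoc4, Lpl, Trem2, Cd36, Fabp4, Fabp5, Gpnmb, Spp1 and Nr1h3. They were taken by symbol, and are 10 of the 32285 genes in the matrices of a single-cell RNA-seq study of mouse ascites. The fluid came from female FVB mice that carried Br-Luc tumors, an ovarian cancer cell line with the genotype p53-/-, brca1-/-, myc and Akt-myr. It was collected 6 weeks after the tumor cells were injected. Mice of both groups received siRNA with locked nucleic acid (LNA) modifications in jetPEI by intraperitoneal injection, either the control siCont-LNA or siFXR1-LNA, which is directed against Fxr1. Each group has 2 libraries, and each library is ascites pooled from 3 mice. Thus the libraries and not the mice or the cells were the replicates. P-values between the treatment groups measure only the spread between these libraries. Those between macrophage states come from fits with 1 residual degree of freedom, in which a spread shared over genes weighs heavily.

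Macrophages take up lipoproteins, fatty acids and the lipids of dying cells, store or break them down, and return cholesterol to carrier particles. Apoe, an apolipoprotein, and the lipoprotein lipase Lpl act on particles outside the cell. Trem2 and the scavenger receptor Cd36 bind lipids at the cell surface, the fatty acid binding proteins Fabp4 and Fabp5 carry fatty acids in the cytosol, and Nr1h3 (LXR alpha) is a nuclear receptor activated by oxysterols, with Apoe among its known targets. Gpnmb, a transmembrane glycoprotein, and Spp1 (osteopontin), a secreted phosphoprotein, are known as markers of lipid-laden macrophages. In tumors and ascites, macrophages of this kind have been described next to others that are marked by Nos2, the inducible nitric oxide synthase.

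On the GRCm38 build, Apoe (chr7:19696109-19699188) and Apoc4 (chr7:19678083-19681479) lie near each other on the minus strand. Fabp4 (chr3:10204088-10208576, minus strand) and Fabp5 (chr3:10012548-10016607, plus strand) lie in the same part of chromosome 3. Nr1h3 is at chr2:91184061-91202834, Trem2 at chr17:48346401-48354147, Gpnmb at chr6:49036546-49070929, Spp1 at chr5:104435118-104441050, Cd36 at chr5:17781690-17888801 and Lpl at chr8:68880491-68907448. Exons of Apoc4, Spp1 and Nr1h3 overlap those of Gm44805, Gm42793 and Gm13783 on the same strand, so their counts are uncertain to the extent that reads were shared. RefSeq promoter windows (GRCm38.p6) were matched for 7 of the 10 genes, and Lpl, Fabp4 and Fabp5 had no match. The 250 bases before a RefSeq start are printed for Apoc4 and Trem2, which were lower in Nos2-high macrophages over all subclusters, and for Gpnmb and Nr1h3, which moved in opposite directions between the treatment labels. Where a gene has more than 1 RefSeq start, the first listed is printed. The window of Nr1h3, like that of Cd36, lies inside the gene's span given above and not at its outer end, so it belongs to an internal start. Capitals mark AGGTCA, the core site of nuclear receptors, and TGANTCA, the site of AP-1, on either strand, and positions count back from -1 at the last base before the start.
Apoc4 (chr7:19681461-19681710, minus strand): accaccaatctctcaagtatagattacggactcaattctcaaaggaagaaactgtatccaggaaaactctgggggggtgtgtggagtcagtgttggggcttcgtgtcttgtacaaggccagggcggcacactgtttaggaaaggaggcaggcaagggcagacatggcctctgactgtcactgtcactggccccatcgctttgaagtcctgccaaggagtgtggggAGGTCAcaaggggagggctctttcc
Trem2 (chr17:48346151-48346400, plus strand): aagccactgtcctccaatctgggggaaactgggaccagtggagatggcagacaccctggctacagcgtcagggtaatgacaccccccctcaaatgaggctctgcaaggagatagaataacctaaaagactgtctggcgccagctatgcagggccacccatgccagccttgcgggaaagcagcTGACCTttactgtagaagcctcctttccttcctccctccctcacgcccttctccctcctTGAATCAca
Gpnmb (chr6:49036268-49036517, plus strand): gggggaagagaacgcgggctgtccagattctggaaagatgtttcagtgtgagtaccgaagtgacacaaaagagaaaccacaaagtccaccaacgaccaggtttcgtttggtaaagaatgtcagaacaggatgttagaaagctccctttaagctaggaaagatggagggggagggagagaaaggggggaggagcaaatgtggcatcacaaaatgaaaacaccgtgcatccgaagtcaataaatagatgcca
Nr1h3 (chr2:91195117-91195366, minus strand): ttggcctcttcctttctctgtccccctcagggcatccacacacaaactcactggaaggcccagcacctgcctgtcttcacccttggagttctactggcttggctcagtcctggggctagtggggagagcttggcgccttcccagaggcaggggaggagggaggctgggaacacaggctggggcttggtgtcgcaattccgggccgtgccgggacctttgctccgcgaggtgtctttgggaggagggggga
AGGTCA was found in the windows of Apoc4 (from -25), Trem2 (from -68) and Cd36 (from -228). It was present in 14% of the 32851 promoter windows of all genes. TGANTCA began at -9 in Trem2 and was present in 6.75% of all windows, and its letters do not overlap those of AGGTCA there. CACGTG (an E-box, in 6.02% of all windows), an NF-kappaB site (GGGA, any base, TTTCC; 0.356%) and the direct repeat of AGGTCA with 4 bases between that is known for LXR (0.0152%) were searched on both strands and were not found in the 11 windows of the 7 genes. These letters describe the windows, and no binding was measured.

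The matrices of siCont-LNA replicates 1 and 2 held 36551 and 25324 barcodes with 101500063 and 88346685 UMIs. Those of siFXR1-LNA replicates 1 and 2 held 54665 and 17309 barcodes with 113606837 and 78179267 UMIs. Any pair of libraries shared between 598 and 2882 barcodes, or 3.46% to 7.89% of the smaller library. Fxr1, the target, had 57.3 and 36.6 CPM (UMIs per 1000000 UMIs of the sum) over all barcodes of siCont-LNA replicates 1 and 2. In siFXR1-LNA replicates 1 and 2 it had 104 and 74.4 CPM. With hemoglobin UMIs left out of the sums, whose share was 29.6%, 41.1%, 10.0% and 9.12%, it had 81.3, 62.1, 116 and 81.8 CPM, so that siCont-LNA replicate 1 and siFXR1-LNA replicate 2 were level. On either scale it was not lower in the siFXR1-LNA-labelled libraries. In macrophages Fxr1 had 65.4, 60.9, 73.4 and 68.7 CPM in the same order, a log2 fold change of 0.36 ± 0.11 (SE, n = 2 against 2, edgeR adjusted p = 0.0851). In epithelial or mesothelial cells it had 109, 126, 140.4 and 138 CPM (0.28 ± 0.23, edgeR adjusted p = 0.521). Exons of Fxr1 overlap those of Dnajc19 on the opposite strand. Since the target was not lower under the siFXR1-LNA label, groups are named by their labels only, and values for 4 libraries are listed as siCont-LNA replicates 1 and 2, then siFXR1-LNA replicates 1 and 2.

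Of 132644 cells kept by the limits on genes and mitochondrial UMIs, 14074 were in clusters that are macrophage-like by their markers, with 4355, 2127, 3936 and 3656 cells in the 4 libraries. They include 114, 43, 620 and 407 cells of a shallow subcluster, number 6 below, in which 5 of the 9 markers used for naming were raised over other cell types. The 8 macrophage markers Cd68, Adgre1, Csf1r, C1qa, C1qb, C1qc, Fcgr1 and Mertk all had UMIs in these cells in every library. Their summed level was 12895, 11663, 4423 and 6530.2 CPM, lower in both siFXR1-LNA-labelled libraries. The other way round, 10 granulocyte markers summed to 125, 429, 1307 and 1553 CPM in the macrophages, led by S100a8 in the siFXR1-LNA-labelled libraries. Hemoglobin and Alas2 UMIs from erythrocytes summed to 82437, 58796, 29638 and 12487 CPM. The 5 adipocyte markers, of interest because adipocytes also express Lpl, Cd36 and Fabp4, summed to 0.31 CPM or less, and Lep, Cidec and Pck1 were at 0 in every library. The part of granulocyte and erythrocyte RNA in the results below was not tested. The libraries also stood apart in their makeup. An unnamed cluster led by Sprr1a, Stbd1 and Tfrc held 68, 56, 41019 and 5430 cells, and erythrocytes numbered 22137, 15799, 14 and 62.

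Among the 7 cell types of the plot of levels by type, macrophages had the highest mean level of 8 of the 10 genes, all but Fabp5 and Lpl. NK cells, with 5 and 10 cells in the siFXR1-LNA-labelled libraries, were left out of that order, and Spp1 was higher in them than in macrophages in 3 of the 4 libraries (118, 361, 37.4 and 549 CPM). Apoe in macrophages was 15401, 9291, 3989 and 8874 CPM, against 1285, 1100, 1322 and 1696 CPM in B cells, the next type, and the ranges did not overlap. Trem2 was 319, 259, 127 and 204 CPM in macrophages and at most 39.2 CPM in any library of the next type, mast cells. Cd36, Apoc4, Fabp4, Gpnmb and Nr1h3 were also apart from the next type in every library. Nr1h3 was above its level in macrophages (6.86 CPM) in the mast cells of siFXR1-LNA replicate 2, at 8.13 CPM from a single UMI. For Spp1 the range in macrophages, 48.6 to 86.4 CPM, overlapped that in granulocytes, 11.9 to 86.4 CPM. These levels describe the clusters, which were found from the same cells, and were not tested.

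Fabp5 was highest in dendritic cells, with 855, 503, 628 and 586 CPM, above its 236, 132, 192 and 292 CPM in macrophages in every library. Its lower levels elsewhere, with means from 27.1 CPM in B cells to 51.6 CPM in mast cells, overlapped among neighbouring types. Lpl had its highest mean in epithelial or mesothelial cells (315, 237, 242 and 234 CPM), overlapping its range in macrophages (284, 184, 119 and 94.5 CPM). In T cells, which are not known to make Lpl, it still had 121, 23.0, 282 and 117 CPM. After thinning each cell to 1000 UMIs, 12.1%, 2.91%, 26.8% and 10.7% of T cells had an Lpl UMI, against 20.3%, 14.2%, 13% and 8.64% of macrophages. Before thinning these shares were 22.3%, 6.14%, 42.1% and 24.1% of T cells and 56.6%, 44.9%, 45.2% and 39.0% of macrophages, at median depths of 1997, 2532, 1887 and 2298 UMIs and 4927, 7937, 5208.5 and 8610 UMIs. In both siFXR1-LNA-labelled libraries, the thinned share of macrophages with an Lpl UMI did not exceed that of T cells. For Nr1h3 the thinned shares were 0.178%, 0%, 0.1% and 0.257% of T cells and 3.48%, 5.89%, 0.563% and 0.549% of macrophages.

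**Figure D1:**
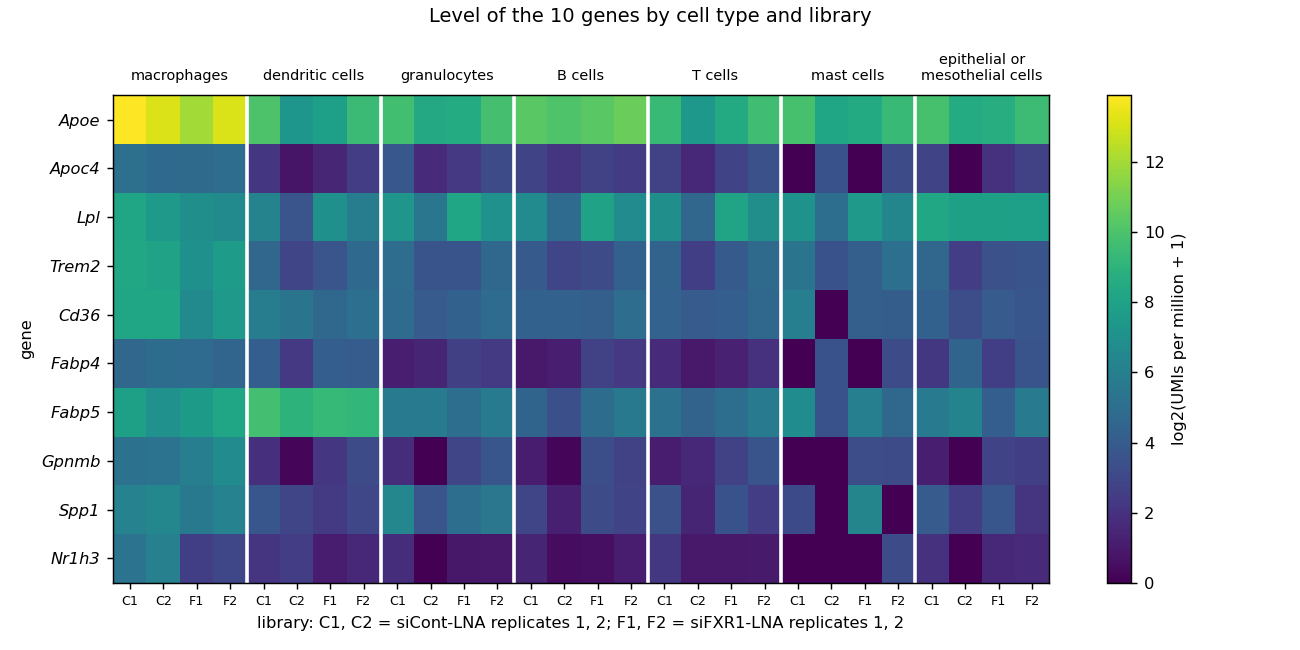
Levels of the 10 genes, as log2(CPM + 1) on a colour scale, in 7 cell types (groups of columns) of the 4 libraries (columns; C1 and C2 are siCont-LNA replicates, F1 and F2 siFXR1-LNA replicates). Macrophages lie above the other types for Apoe, Trem2, Cd36, Apoc4, Fabp4, Gpnmb and Nr1h3, except for Nr1h3 in mast cells of siFXR1-LNA replicate 2 (8.13 CPM from 1 UMI), while Fabp5 is highest in dendritic cells.

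Macrophages were divided by Nos2, with at least 2 UMIs in a cell as the limit for calling it Nos2-high. No macrophage of the siCont-LNA-labelled libraries reached it, 0 of 4355 and 0 of 2127, which allows shares of up to 0.0847% and 0.173% (upper ends of exact 95% binomial intervals). In siFXR1-LNA replicate 1 it was reached by 1429 of 3936 cells, or 36.3% (34.8 to 37.8, exact 95% binomial interval), and in replicate 2 by 1387 of 3656, or 37.9% (36.4 to 39.5). Intervals and limits cover counting error only. The groups did not overlap, and the two-sided exact permutation p was 0.333, the smallest that 2 against 2 libraries can give. The Nos2-high cells were deeper, with median counts of 7104 and 10937 UMIs against 4481 and 7466 UMIs in the other macrophages of the same libraries. After thinning to 2000 UMIs the shares were 0%, 0%, 18.5% and 15.9%. In T cells and B cells of the siFXR1-LNA-labelled libraries, Nos2 had between 25.7 and 30.3 CPM, while macrophages with fewer than 2 Nos2 UMIs had 39.8 and 21.7 CPM there.

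Within the siFXR1-LNA-labelled libraries, Nos2-high macrophages summed over all subclusters had less of most of the 10 genes than the other macrophages, but not within the subcluster that held most of them. The 2 states lay in different macrophage subclusters, which are described below. Subcluster 0 held 80.7% and 84.5% of the Nos2-high cells of replicates 1 and 2, and 37.7% and 32.1% of the others. Subcluster 2, where Apoe and Apoc4 were high, held 1.19% and 1.51% of the Nos2-high cells and 18.7% and 39.1% of the others. Over all macrophages, of the 10, 8 were lower in edgeR's test with the library as a block (Apoc4, Apoe, Lpl, Trem2, Gpnmb, Spp1, Fabp4 and Cd36) and none was higher, where 26.8% of the 13157 genes tested were called, 13.2% as lower. The 8 macrophage markers named above moved with them, summing to 5158 and 8655 CPM in the macrophages with fewer than 2 Nos2 UMIs of siFXR1-LNA replicates 1 and 2 and to 3560.5 and 4052 CPM in their Nos2-high macrophages, and the part of this in the results was not tested. The median log2 difference of the 10 was -0.74, beside -0.015 for all genes tested. This test has 1 residual degree of freedom and gave every gene the spread of the whole fit. Without the library block 1 of the 10 (Apoc4) remained called, and in DESeq2 5 did, while leaving out either library leaves no test.

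Within subcluster 0 alone, most of the same genes were higher in the Nos2-high cells. In a fit added after the subclusters had been seen, with the library as a block, edgeR called 8 of the 10, 7 as higher (Fabp4, Spp1, Gpnmb, Cd36, Fabp5, Trem2 and Apoe) and Lpl as lower, where 20.2% of 11823 genes tested were called, 11.1% as higher and 9.14% as lower. The median log2 difference of the 10 was 0.345 there, beside -0.0159 for all genes. Apoe was 1614 and 1959 CPM in the cells of subcluster 0 with fewer than 2 Nos2 UMIs in replicates 1 and 2, and 1688 and 2232 CPM in its Nos2-high cells (log2 difference 0.22 ± 0.035, edgeR adjusted p = 8.25e-07). Cd36 was 65.0 and 78.0 CPM against 92.2 and 96.9 CPM in the Nos2-high cells (0.49 ± 0.066, edgeR adjusted p = 1.56e-08). Both were higher in the Nos2-high cells of each library, by less than they were lower over all macrophages in the case of Apoe. Trem2 was 82.3 and 86.8 CPM against 92.6 and 99.5 CPM in the Nos2-high cells. The log2 differences are TMM-scaled, and those of Apoe and Trem2 (0.28) were larger than the rise in CPM in either library. Apoc4 was 3.83 and 3.75 CPM against 3.08 and 4.45 CPM (0.11 ± 0.27, edgeR adjusted p = 0.833), so the difference in Apoc4 described next was not found within subcluster 0. Lpl was 105 and 51.6 CPM against 79.7 and 38.6 CPM (-0.32 ± 0.069, edgeR adjusted p = 0.000333), lower in both libraries. Spp1 was called as higher, but was lower in replicate 1 (23.3 against 16.8 CPM) and higher in replicate 2 (38.7 against 69.3 CPM). The Nos2-high cells were deeper here too, with medians of 7822 and 11699 UMIs against 6002.5 and 9176 UMIs, and this fit also has 1 residual degree of freedom.

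Apoc4, a small apolipoprotein encoded near Apoe, had the largest difference of the 10 over all macrophages. It was 45.3 and 52.4 CPM in the macrophages with fewer than 2 Nos2 UMIs of siFXR1-LNA replicates 1 and 2, and 4.77 and 5.28 CPM in their Nos2-high macrophages. The levels were apart in both libraries, with a log2 difference of -3.03 ± 0.14 (SE, n = 2 libraries, edgeR adjusted p = 6.12e-94, at most 0.00985 over 15 alternatives other than the fit within subcluster 0). Among these are fits without subcluster 6 and without subcluster 3. The latter nearly repeats the main fit, since subcluster 3 has 0 and 1 cells in these libraries. The Apoc4 level in the Nos2-high cells was below the 6.30 and 10.0 CPM in T cells of the same libraries, so the size of the difference rests on values no higher than those in cells of another type. Apoe was 5887 and 14418 CPM in the macrophages with fewer than 2 Nos2 UMIs and 1764 and 2411 CPM in the Nos2-high ones, a log2 difference of -1.92 ± 0.27 (edgeR adjusted p = 6.16e-11, from 1.27e-24 to 0.0908 over those alternatives), opposite in sign to its value within subcluster 0. Apoe in the Nos2-high cells stayed above the 358 and 796 CPM of T cells and, by less, above the 1322 and 1696 CPM of B cells of the same libraries.

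Over all macrophages, Lpl went from 148 and 139 CPM to 84.2 and 42.2 CPM, and Trem2 from 161 and 294 CPM to 87.5 and 99.5 CPM. Both were lower in the Nos2-high cells of each library, with log2 differences of -1.02 ± 0.12 and -0.99 ± 0.12. Lpl in the Nos2-high cells was below its 282 and 117 CPM in T cells of the same libraries, while Trem2 stayed above its 14.1 and 27.3 CPM there. Gpnmb was 73.2 and 144 CPM against 46.6 and 54.8 CPM, lower in both libraries (log2 difference -0.80 ± 0.11). Fabp4, Spp1 and Cd36 had smaller differences of -0.65, -0.68 and -0.47. For Cd36 the call was lost in 8 of those 15 alternatives, and for Spp1 in 7. Within subcluster 0 the values of Trem2 (0.28), Gpnmb (0.53), Fabp4 (0.55), Spp1 (0.57) and Cd36 (0.49) had the opposite sign. Spp1 was 72.5 and 76.9 CPM against 20.7 and 65.2 CPM, so that its log2 ratio was -1.81 in replicate 1 and -0.24 in replicate 2. Fabp5 (182 and 349 CPM against 205 and 226 CPM) moved in different directions in the 2 libraries. Nr1h3 was low in both states, at 5.37 and 8.27 CPM against 4.49 and 5.22 CPM (log2 difference -0.25 ± 0.21, edgeR adjusted p = 0.421). In all, 9 of the 10 genes were lower in the Nos2-high cells of both libraries when all macrophages were summed, and so were 64.5% of all genes tested.

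**Figure D2:**
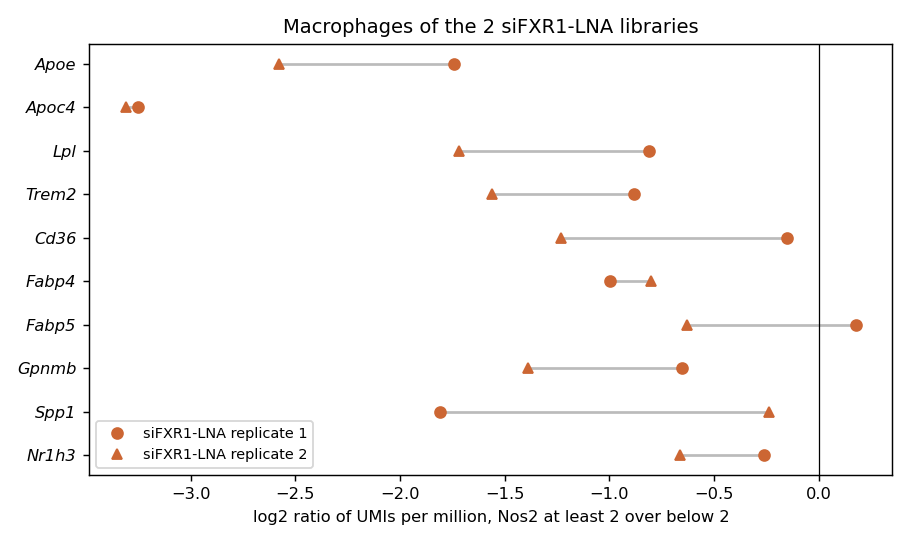
Log2 ratio of the level in macrophages with at least 2 Nos2 UMIs over that in macrophages with fewer, for the 10 genes in the 2 siFXR1-LNA-labelled libraries. Apoc4 has the lowest ratio in both libraries (-3.25 and -3.31), and Fabp5 has 1 ratio above 0. The ratios are over all macrophages, and the 2 states lie in different subclusters.

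Between the treatment labels, over all macrophages, Nr1h3 was lower and Gpnmb higher in the siFXR1-LNA-labelled libraries, and the other 8 genes did not pass the test. The 2 of 10 called stand beside 18.9% of the 14274 genes tested, and the median log2 fold change of the 10 was -0.40 beside 0.0064 over all genes. A sum over all macrophages does not separate how many cells of a kind there were from the level per cell, and levels within subclusters are given below.

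Nr1h3 was 39.0 and 64.6 CPM in the siCont-LNA-labelled libraries and 4.97 and 6.86 CPM in the siFXR1-LNA-labelled ones. The groups were far apart, with a log2 fold change of -2.94 ± 0.33 (SE, n = 2 against 2, edgeR adjusted p = 0.00917). With a library left out, 1 label has a single library, which is then assumed to vary like the 2 of the other label. Without siFXR1-LNA replicate 1 the adjusted p was 0.0566, and with each of the others left out it was at most 0.0423. Gpnmb was 36.6 and 38.1 CPM in the siCont-LNA-labelled libraries and 61.0 and 103 CPM in the siFXR1-LNA-labelled ones, without overlap (log2 fold change 1.32 ± 0.26, edgeR adjusted p = 0.0287). Its adjusted p was 0.0745 without siCont-LNA replicate 1 and 0.0728 without replicate 2. In T cells Gpnmb was 5.33 and 11.3 CPM in the siFXR1-LNA-labelled libraries against 1.16 and 2.08 CPM, which did not pass the test (edgeR adjusted p = 0.275). Its log2 fold change was above that in macrophages, also without passing, in B cells (3.28, edgeR adjusted p = 0.22) and granulocytes (3.21, 0.107). The same held in epithelial or mesothelial cells (2.60, 0.0532) and dendritic cells (2.01, 0.331).

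Of the apolipoproteins, Apoe ranged from 9291 to 15401 CPM in the siCont-LNA-labelled libraries and from 3989 to 8874 CPM in the siFXR1-LNA-labelled ones. These ranges did not overlap but each spanned more than the gap between them (log2 fold change -0.75 ± 0.48, edgeR adjusted p = 0.319, and -1.43 to -0.27 with a library left out). Apoc4 was 34.7, 25.6, 26.6 and 30.6 CPM, with overlap (0.12 ± 0.17). Its mean CPM was 30.2 against 28.6, and that of Fabp4 26.2 against 25.3, lower under the siFXR1-LNA label, while the TMM-scaled fold changes of both were above 0. Lpl, at 284, 184, 119 and 94.5 CPM, was lower in both siFXR1-LNA-labelled libraries without passing the threshold (-0.94 ± 0.24, edgeR adjusted p = 0.0549). The receptors behaved likewise. Cd36 was 302, 295, 98.1 and 176 CPM (-0.94 ± 0.28, edgeR adjusted p = 0.0785), and Trem2 was 319, 259, 127 and 204 CPM (-0.61 ± 0.25, edgeR adjusted p = 0.149). Neither overlapped between the groups. Fabp4 (23.1, 29.3, 28.6 and 22.1 CPM), Fabp5 (236, 132, 192 and 292 CPM) and Spp1 (69.8, 86.4, 48.6 and 71.5 CPM) overlapped between the groups, with log2 fold changes of 0.14, 0.59 and -0.19.

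**Figure D3:**
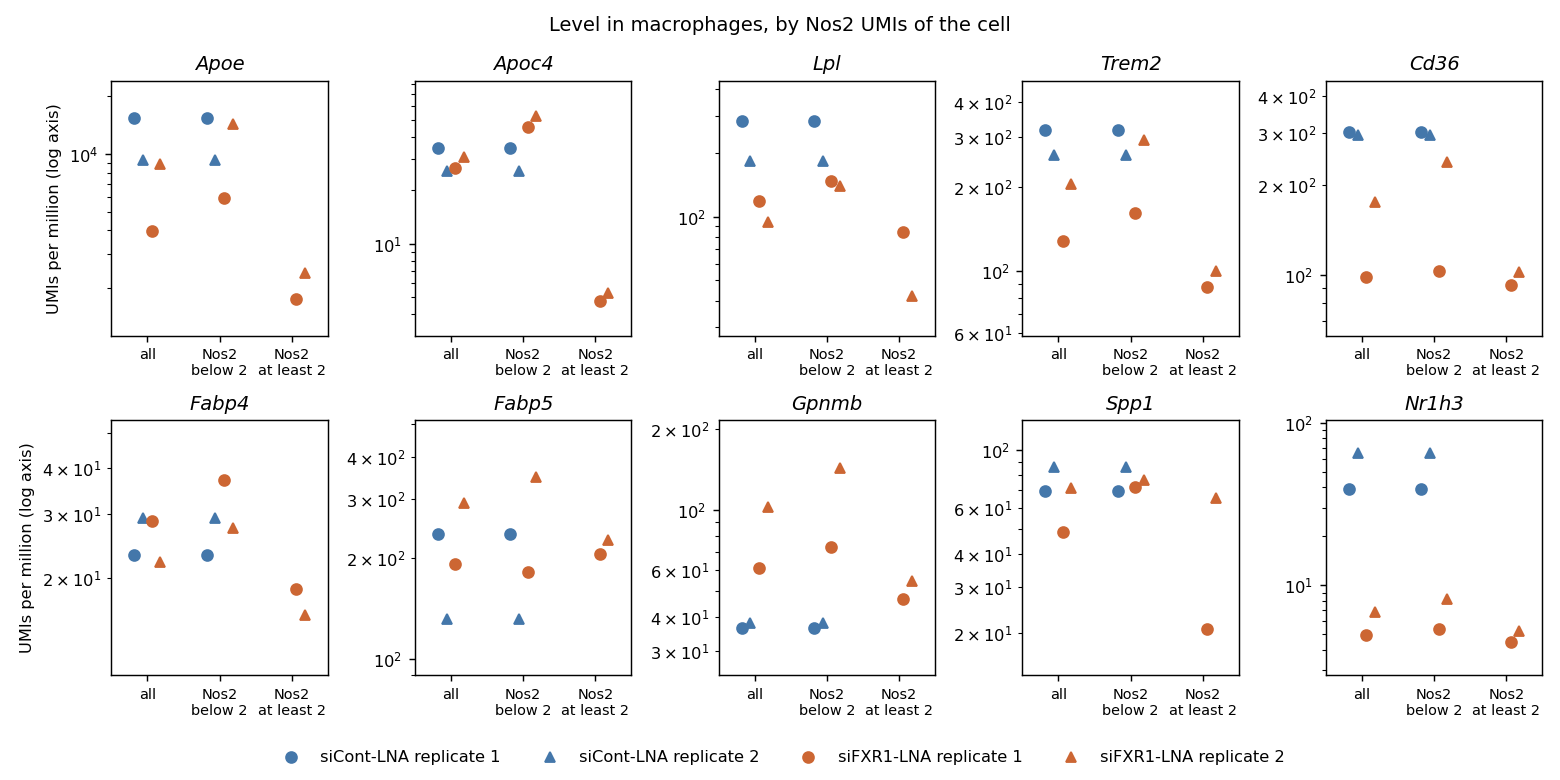
Levels of the 10 genes (CPM, log axis) in all macrophages and in those with fewer than 2 and at least 2 Nos2 UMIs, with 1 point per library and the labels in 2 colours. No point of the siCont-LNA-labelled libraries stands at the third position, and their Nr1h3 at 39.0 and 64.6 CPM lies above that of the other libraries in both states (4.49 to 8.27 CPM).

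The same contrast among macrophages with fewer than 2 Nos2 UMIs asks what differs once the Nos2-high cells are left out. It uses the same sums for the siCont-LNA-labelled libraries, so it is not independent of the contrast over all macrophages. Different subclusters, described below, held most of these cells under the 2 labels. Subcluster 0 held 0%, 0.047%, 37.7% and 32.1% of them in the 4 libraries, subcluster 1 held 56.2%, 6.91%, 0.279% and 2.95%, and subcluster 3 held 23.8%, 33.7%, 0% and 0.0441%. Of the 10 genes 1 was called, Nr1h3 as lower, where 5.63% of 13746 genes tested were (2.72% as higher, 2.91% as lower), and the median of the 10 was -0.095 beside 0.0012 over all genes. Nr1h3 was 5.37 and 8.27 CPM in the siFXR1-LNA-labelled libraries (log2 fold change -2.84 ± 0.34, edgeR adjusted p = 0.0282). That call was lost without siCont-LNA replicate 2 (edgeR adjusted p = 0.0634), without siFXR1-LNA replicate 1 (0.114) and without siFXR1-LNA replicate 2 (0.0666). Gpnmb, at 73.2 and 144 CPM in these cells, had a log2 fold change of 1.61 ± 0.31 (edgeR adjusted p = 0.0536).

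Apoc4, at 45.3 and 52.4 CPM in the siFXR1-LNA-labelled libraries against 34.7 and 25.6 CPM, was higher in both of them without passing the test (0.78 ± 0.17, edgeR adjusted p = 0.0711). Apoe, at 5887 and 14418 CPM, now overlapped the range of the siCont-LNA-labelled libraries (-0.21 ± 0.52), as did Trem2 at 161 and 294 CPM (-0.27 ± 0.29). Lpl, at 148 and 139 CPM, and Cd36, at 103 and 240 CPM, lay below both siCont-LNA-labelled libraries, with log2 fold changes of -0.61 ± 0.23 and -0.73 ± 0.38. With a library left out, that of Cd36 ranged from -1.41 to -0.25. Whether the label contrast differs between the 2 states could not be fitted, since no Nos2-high macrophage came from a siCont-LNA-labelled library.

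**Figure D4:**
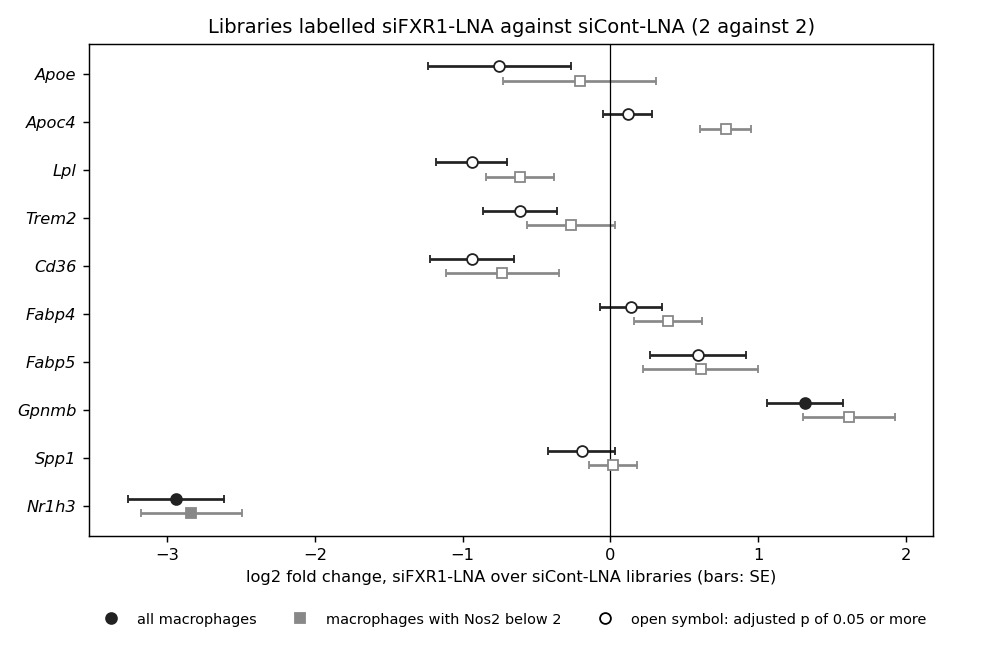
Log2 fold change with SE of the 10 genes between siFXR1-LNA-labelled libraries and siCont-LNA, in all macrophages and in those with fewer than 2 Nos2 UMIs, with filled symbols where the adjusted p was under 0.05. Nr1h3 lies at -2.94 and -2.84, Gpnmb at 1.32 and 1.61, and Apoc4 at 0.12 and 0.78.

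The macrophages fell into 7 subclusters, numbered 0 to 4, 6 and 7 after other clusters had been moved to other types or left unnamed, and found with the 10 genes and Nos2 left out of the genes used for clustering, and the libraries differed in them. Subcluster 0, led by Cxcl3, Mt2 and Saa1, held 0, 1, 2099 and 1900 cells and made up 80.7% and 84.5% of the Nos2-high cells. Subcluster 1, led by Ccl8, Lyve1 and Fcna, held 2449, 147, 7 and 68 cells. Subcluster 2, led by Prg4, Serpinb2 and Alox15, held 134, 669, 487 and 908. Apoe was highest in the latter 2, at 20917 and 14532 CPM in subcluster 1 of the siCont-LNA-labelled libraries and at 18538, 15378, 17025 and 28671 CPM in subcluster 2 of the 4 libraries. It was 1659 and 2141 CPM in subcluster 0 of the siFXR1-LNA-labelled libraries. Subcluster 1 held 83.7% of the macrophage Apoe UMIs of siCont-LNA replicate 1, while subcluster 2 held 58.8%, 48.8% and 73.7% of those of the other 3 libraries. The replicates labelled siCont-LNA thus drew their Apoe from different subclusters.

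Nr1h3 was concentrated in subcluster 3, led by Slfn4, Cxcl10 and Nr1h3 itself, with Ace and Cd300e among its leading genes. It was 128 and 154 CPM there in the siCont-LNA-labelled libraries, which held 1035 and 716 of these cells, and the subcluster had 0 and 1 cells in the siFXR1-LNA-labelled libraries. It carried 67.3% and 82.0% of the macrophage Nr1h3 UMIs of siCont-LNA replicates 1 and 2. With subcluster 3 left out, the log2 fold change of Nr1h3 over all macrophages was -1.30 (edgeR adjusted p = 0.028). That of Gpnmb was 0.90 (adjusted p = 0.101). Among macrophages with fewer than 2 Nos2 UMIs the Nr1h3 value was then -1.20 (adjusted p = 0.0761), and 0 of the 10 genes were called. These values were computed after the subclusters had been seen.

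Gpnmb was above both siCont-LNA-labelled libraries in both siFXR1-LNA-labelled ones in every subcluster with enough cells in all libraries to be fitted. In subcluster 2 it was 39.0, 77.6, 206 and 285 CPM, in subcluster 4, led by Ear2, Retnla and Ccr2, 2.68, 6.51, 41.2 and 19.1 CPM, and in subcluster 7, led by cell cycle genes, 50.8, 28.2, 73.2 and 77.4 CPM. The groups did not overlap in any of them, but none of these differences passed the test, with log2 fold changes of 2.00, 2.53 and 1.09 and edgeR adjusted p-values of 0.342, 0.339 and 0.151. In subcluster 6, a shallow cluster led by Gm6209, Junos and Il1r1, the list most raised over the other subclusters was that of granulocytes. Gpnmb was 27.5, 6.84, 104 and 94.5 CPM there (log2 fold change 2.25, edgeR adjusted p = 0.0235). Nr1h3 was 31.0, 54.7, 4.27 and 5.14 CPM (-3.09, adjusted p = 0.0122). With subcluster 6 left out, the values over all macrophages were 1.33 for Gpnmb (edgeR adjusted p = 0.034) and -2.88 for Nr1h3 (0.00912).

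Of the 10 genes, edgeR called 0 in subclusters 2, 4 and 7 and 2 in subcluster 6, where 0%, 0.0104%, 1.85% and 8.41% of the genes tested were called. At an unadjusted p under 0.05 the counts were 2, 4, 4 and 6, where 6.61%, 7.98%, 16.2% and 25.1% of all genes passed. DESeq2 called 1 (Gpnmb), 0, 0 and 2, beside 0.515%, 0.523%, 2.43% and 6% of all genes. In subcluster 4 Apoe was 2050, 4106, 6526 and 8433 CPM (log2 fold change 1.17, edgeR adjusted p = 0.518), opposite in sign to its value over all macrophages. Fabp4 reached its highest levels in subcluster 2 (257, 61.6, 128 and 47.3 CPM), and Apoc4 did so too (69.2, 55.5, 179 and 115 CPM). Trem2 was highest in subcluster 1 in both siCont-LNA-labelled libraries, at 442 and 573 CPM.

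**Figure D5:**
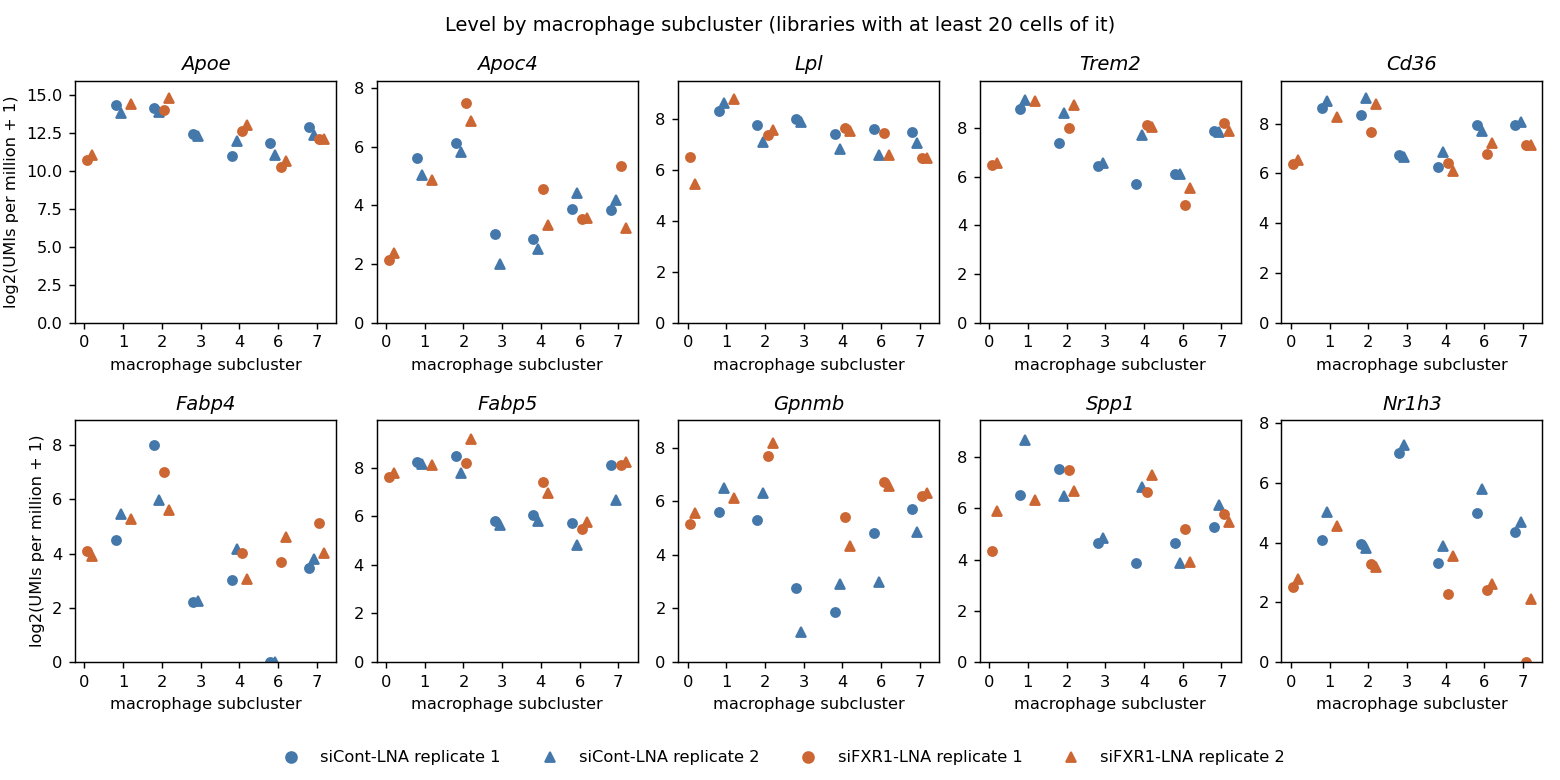
Levels of the 10 genes, as log2(CPM + 1), in the macrophage subclusters, 1 point per library with at least 20 cells. Apoe is highest in subclusters 1 and 2, Nr1h3 in subcluster 3 (128 and 154 CPM), and Gpnmb in subcluster 2 of the siFXR1-LNA-labelled libraries (206 and 285 CPM).

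Outside macrophages, edgeR called 0 of the genes tested between the labels in dendritic cells (10 tested), granulocytes (9), B cells (9), T cells (8), mast cells (2) and epithelial or mesothelial cells (9). Of all genes, 2.2%, 3.13%, 0.112%, 0.308%, 0.947% and 7.68% were called in these types. At an unadjusted p under 0.05 the counts were 1, 1, 3, 1, 0 and 1, where 19.2%, 18.2%, 14.3%, 11.7%, 10.5% and 23.5% of all genes passed. DESeq2 called 1 of 51 over the 6 types, Gpnmb in B cells as higher, beside 2.05% of all genes. With siCont-LNA replicate 1 left out, so that the label has 1 library, 13 of 48 were called as higher, beside 5.1% of all genes, among them Lpl in dendritic cells, granulocytes, B cells and T cells. Without siCont-LNA replicate 2 there were 4 calls of 51, beside 5.54% of all genes in either direction, and without siFXR1-LNA replicate 2 there were 2 of 51, beside 3.58%.

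The rest of the lipid program was followed in 42 other genes of lipoproteins, lipases, receptors, sterol transport, fatty acid handling and lysosomes, of which 39 were tested in macrophages. Between the labels 4 were higher and 6 lower over all macrophages, where 9.3% of all genes were higher and 9.64% lower, and the median log2 fold change of the 39 was -0.17. Those lower were led by Pparg, the nuclear receptor that drives fatty acid storage (26.9, 26.5, 2.37 and 3.02 CPM, log2 fold change -3.11 ± 0.18). Next were Pltp, a phospholipid transfer protein (-1.57), the cholesterol exporter Abcg1 (-1.08), Rxra, the common partner of these nuclear receptors (-0.75), and Cpt1a, of mitochondrial fatty acid entry (-0.66). Those higher were the lipoprotein receptor Vldlr (5.02), the lysosomal protease Ctsl (2.16), the acyl-CoA synthetase Acsl1 (1.73) and the triglyceride lipase Pnpla2 (0.76).

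Vldlr was 1.00, 0.46, 33.1 and 9.94 CPM in macrophages but 2.13, 0.80, 86.3 and 36.3 CPM in T cells, and it was among the leading genes of the unnamed cluster named above. Ctsl was 355, 365, 1463 and 1360 CPM in macrophages and 124, 29.3, 985 and 566 CPM in T cells. The part of free RNA in these rises was not tested. Acsl1 was 24.0, 27.4, 77.4 and 72.4 CPM in macrophages and 7.95 to 18.4 CPM in T cells. Among macrophages with fewer than 2 Nos2 UMIs, Vldlr, Ctsl and Acsl1 were higher and Pparg lower, and the other 35 genes tested did not pass.

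Between the states over all macrophages, 7 of the 39 were higher and 16 lower in Nos2-high macrophages, where 13.6% of all genes were higher and 13.2% lower. The median log2 difference of the 39 was -0.20. Within subcluster 0, 15 of the 38 tested were higher and 5 lower, where 11.1% of all genes were higher and 9.14% lower. Apoc1, of the same cluster of apolipoprotein genes as Apoe and Apoc4, was 7.17 and 13.7 CPM in the macrophages with fewer than 2 Nos2 UMIs and 0.955 and 1.72 CPM in the Nos2-high ones (-2.70). Apoc2, which activates lipoprotein lipase, was 379 and 431 CPM against 138 and 155 CPM (-1.22). Pparg (-2.0), the oxidized lipoprotein receptor Olr1 (-1.27) and the tetraspanin Cd9 (-0.99) were lower as well. The largest rises were those of Acsl1 (1.05), the scavenger receptor Marco (1.03), the cholesterol exporter Abca1 (0.81), Ctsl (0.77) and Srebf1, a regulator of lipid synthesis (0.39). Within subcluster 0, Apoc1, Apoc2, Pparg and Srebf1 were not among the genes called. Olr1 and Cd9 were called as lower there too, and Acsl1, Marco, Abca1 and Ctsl as higher.

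In single macrophages thinned to 2000 UMIs, cells with fewer than 2 Nos2 UMIs had UMIs of a mean of 2.41, 2.15, 1.94 and 2.40 of the 10 genes in the 4 libraries. Nos2-high cells had 1.53 and 1.57. The Nos2-high mean was lower in both libraries that held such cells, over macrophages whose 2 states lie in different subclusters. At least 5 of the genes were seen in 6.38%, 4.45%, 3.48% and 10.1% of the former and in 0.357% and 0.870% of the latter. Trem2-positive macrophages more often had a UMI of Cd36 in every library (43.4%, 45.2%, 19.1% and 33.4%, against 24.4%, 25.7%, 11.3% and 16.8% of those without Trem2) and of Gpnmb (5.64%, 7.14%, 12.7% and 21.8%, against 2.55%, 2.45%, 7.53% and 8.84%). Nr1h3 differed in that it was seen less often with Trem2 in the siCont-LNA-labelled libraries (4.33% and 8.57%, against 8.96% and 12.2%) and more often in the siFXR1-LNA-labelled ones (1.34% and 1.97%, against 0.959% and 1.11%). Cells of a library are not replicates, and these shares were not tested.

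Over 21 sums of a macrophage subcluster in a library, 24 of the 45 pairs of the 10 genes had a Pearson correlation of log2(CPM + 1) over 0.5, and 6 were below 0. The pairs ranged from -0.55 for Gpnmb and Nr1h3 to 0.866 for Apoe and Trem2, with a median of 0.534. These sums share libraries, and whether the 10 genes go together more than other genes do was not tested. Over 38 sums of a cell type in a library, which share libraries and depth, the gene outside the lipid lists most like Apoe (r = 0.917) and most like Trem2 (r = 0.963) was C1qb, a complement gene that was also used as a macrophage marker. Among the 3 genes closest to Gpnmb were Hmox1 (0.915), the heme oxygenase, and Ms4a4a (0.886). Nr1h3 was most like Gdf3 (0.94) and Cd300e (0.887). Cd36 was most like Fcna (0.858), Apoc4 most like Lyz1 (0.824) and Lpl most like Sorbs3 (0.88). For Fabp4, Fabp5 and Spp1 the closest genes were Alpk1 (0.814), Dnah2 (0.842) and Xdh (0.768).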

How the data were processed

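Ascites cells of 4 libraries, 2 labelled siCont-LNA and 2 labelled siFXR1-LNA, were profiled by droplet single-cell RNA-seq. For each library the authors deposited raw UMI counts per gene and barcode, made by Cell Ranger (7.0.0 in the submitters' processing notes) on mm10 and not normalized. The labels and the study's methods differ on kit and software versions. The study left out 1 library of the siFXR1-LNA group, described as having fewer reads and cells but not named by its replicate number. In the files replicate 2 of that group has fewer UMIs (78179267 against 113606837) and barcodes (17309 against 54665). Both were used here and each was left out in turn. The study's limits on cells were applied to the counts: 100 to 4800 genes, and mitochondrial UMIs not over 15%. They left 132644 cells, several times more than the study states it kept, so the cells analysed here differ from the study's. Counts were scaled to 10000 per cell, and 2000 variable genes, without the 10 genes and Nos2, were reduced to 50 principal components and clustered (Louvain, resolution 0.1, no integration). A list named a cluster where at least 3 of its markers were raised 2-fold in at least 5% of cells, and this rule was written and changed after clusters had been seen. The names stand for cells that are like the type by its markers. Macrophage clusters were clustered again.

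The 10 genes, the gene and marker lists and the tests were chosen with earlier results of these data known. Of the other lipid genes, up to 5 per direction with the largest changes past the threshold are named, and for likeness the 3 genes outside the lists with the highest correlation were computed. Other genes named are markers or leading genes of clusters. A gene among the macrophage markers and a gene of the likeness search are not reported here. UMIs were summed per library and cell class, given as CPM, and compared with edgeR 4.0.16 (TMM, filterByExpr, quasi-likelihood test, Benjamini-Hochberg adjustment over all genes tested, threshold 0.05) in R 4.3.3 where each library held at least 20 cells. Median depth of macrophages was 4927 to 8610 UMIs. The edgeR test was tested on simulated counts with known changes. Between the labels it missed most 2-fold changes (over all macrophages, with fewer than 2 Nos2 UMIs, in subcluster 4 and, most of all, in T cells) and recovered most 4-fold ones, so a gene that was not called there may still differ. Between the 2 Nos2 states it recovered nearly all of both sizes. The counts were simulated with the spread that each fit had itself estimated and without differences between libraries. The recovery between the states therefore cannot show whether the small spread of that fit is right. Alternatives were other limits on cells, resolution 0.3, the 10 genes and Nos2 kept among the variable genes, naming of single cells, other Nos2 limits, DESeq2 1.42.0, no filter on low counts, hemoglobin and mitochondrial genes left out, the replicate or library block, and each library left out. Scrublet (scanpy 1.11.5) marked at most 0.0028% of the cells, so it did not work as a doublet caller, and removal of the 5% highest scores was an alternative. The fits without subclusters 3 or 6, within subclusters, between the Nos2 states within subcluster 0, and of other cell types with DESeq2 or a library left out were added after seeing the data. Sequences are from RefSeq (GRCm38.p6) and gene positions from GENCODE vM21.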

Additional observations from a re-analysis of the deposited data

Results flagged for a closer look

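In 9 comparisons of a gene between cell classes, both siFXR1-LNA-labelled libraries lay above both siCont-LNA-labelled libraries in 1 class and below them in the other. This was 2 of 168 comparisons between cell types (1.19%, beside 5.96% over all genes) and 7 of 60 between macrophage subclusters (11.7%, beside 5.46%), of genes with at least 20 UMIs in both classes. The difference between the classes was not tested in any of them. Each value is the log2 ratio of the mean CPM of the siFXR1-LNA-labelled libraries over that of the siCont-LNA-labelled libraries in the class where the gene was higher. CPM values are in the order siCont-LNA replicates 1 and 2, then siFXR1-LNA replicates 1 and 2.

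Apoe was higher in B cells (0.339) at 1285, 1100, 1322 and 1696 CPM, and lower in macrophages. Fabp5 was higher in B cells (1.33) at 21.2, 9.59, 29.2 and 48.2 CPM, and lower in epithelial or mesothelial cells at 50.7, 77.3, 16.5 and 49.8 CPM.

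Apoe was higher in macrophage subcluster 4 (1.28) at 2050, 4106, 6526 and 8433 CPM. It was lower in subcluster 6 at 3719, 2168, 1226 and 1632 CPM and in subcluster 7 at 7573, 5319, 4445 and 4426 CPM. Trem2 was higher in subcluster 4 (1.07) at 51.0, 209, 282 and 265 CPM, and lower in subcluster 6 at 68.8, 68.4, 27.8 and 45.0 CPM. It was also higher in subcluster 7 (0.186) at 235, 231, 293 and 237 CPM. Apoc4 was higher in subcluster 4 (1.52) at 6.26, 4.74, 22.5 and 9.0 CPM and in subcluster 2 (1.24) at 69.2, 55.5, 179 and 115 CPM. It was lower in subcluster 6 at 13.8, 20.5, 10.7 and 10.9 CPM. Lpl was higher in subcluster 4 (0.439) at 172, 113, 202 and 184 CPM, and lower in subcluster 7 at 180, 133, 87.8 and 87.5 CPM. Subclusters 6 and 7 were small in some libraries, with 43 and 24 cells in the smallest.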

How the results depend on the processing

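With 2 libraries a group, single libraries weigh heavily. Over all macrophages 2 of the 10 genes were called, but 4 in DESeq2, 5 without the filter on low counts, 1 without subcluster 3 and 1 to 3 with a library left out. With fewer than 2 Nos2 UMIs 1 was called, but 3 in DESeq2, 4 without the filter, 2 with the 10 genes and Nos2 among the variable genes, with at least 3 Nos2 UMIs as the limit or with Nos2 counted after thinning, 0 without subcluster 3 and 0 to 1 with a library left out. Of all genes, 5.55%, 7.54% and 14.6% were called in the settings that gave 2, in the order named. The counts in these settings are not read as a result about the 10 genes in particular. Between the states 8 were called, but 5 in DESeq2 and 1 without the library block. All 8 were called as lower, while within subcluster 0 the 8 called were 7 as higher and 1 as lower. Of all genes, over all macrophages 18.9% were called in the main setting, 21.7% in DESeq2, 18.4% without the filter, 14.3% without subcluster 3 and 3.11% to 13% with a library left out. With fewer than 2 Nos2 UMIs these shares were 5.63%, 11.9%, 11.6%, 2.7% and 0.0488% to 3.8%, and between the states 26.8% in the main setting, 8.32% in DESeq2 and 2.97% without the library block. In the other cell types the 0 calls became 1 in DESeq2 and 0 to 13 with a library left out. The share of Nos2-high macrophages kept its direction in every alternative, with a difference between the means of the labels from 17.2 to 48.5 percentage points.

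The replicate numbers pair nothing that the labels state. Deviations of same-numbered libraries from their group means correlated at 0.354 over 14274 genes in macrophages and at 0.306 with fewer than 2 Nos2 UMIs. With the replicate number as a block, 4 genes were called over all macrophages and 3 with fewer than 2 Nos2 UMIs, and 3731 and 1718 of all genes in place of 2703 and 774.

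Of all genes, the calls over all macrophages went from 2703 to 4081 without the filter, and to 464 to 1923 with a library left out. With fewer than 2 Nos2 UMIs they went from 774 to 204 with each cell named from its own marker UMIs, 364 without subcluster 3, 397 with 1 Nos2 UMI as the limit, 2047 after thinning, 1675 in DESeq2, 2511 without the filter and 7 to 540 with a library left out. Between the states they went from 3520 to 1076 in DESeq2 and 391 without the library block.

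Directions between the states turned within subcluster 0, where Apoe was 0.22, Trem2 0.28, Cd36 0.49, Fabp4 0.55 and Gpnmb 0.53 as log2 differences, so the lower values over all macrophages do not hold there. Within subcluster 0 those of Apoe and Trem2, which are TMM-scaled, were larger than the rise in CPM in either library. Apoc4 (0.11, not called) and Spp1 (0.57, called) were above 0 there as well, but both were lower in replicate 1 and higher in replicate 2. The other directions that turned were of values that no test called in the main setting, as log2 values. Over all macrophages Apoc4 was -0.26 and Fabp4 -0.27 without subcluster 3. With a library left out Apoc4 ranged from -0.052 to 0.31, Fabp4 from -0.056 to 0.36 and Spp1 from -0.48 to 0.080. With fewer than 2 Nos2 UMIs Apoe ranged from -0.94 to 0.30, Trem2 from -0.72 to 0.099 and Spp1 from -0.15 to 0.20. There Fabp4 was -0.023 without subcluster 3. Spp1 was -0.010 at resolution 0.3, -0.094 with single cells named, -0.31 without subcluster 3, -0.082 with 3 Nos2 UMIs, -0.19 after thinning and -0.0087 without the filter. Between the states Fabp5 was -0.0021 at a mitochondrial limit of 30%, -0.0033 without the highest Scrublet scores, -0.071 with 1 Nos2 UMI, -0.28 after thinning (adjusted p = 0.0425), -0.0077 without the filter, -0.0085 without hemoglobin and mitochondrial genes, and -0.050 without the library block. The causes were not tested. The interaction of label and state, the label contrast within Nos2-high cells and the states with a library left out could not be fitted.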

Other observations

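NK cells were too few for a test in the siFXR1-LNA-labelled libraries, with 76, 54, 5 and 10 cells in the 4 libraries. Spp1 had 29, 95, 1 and 25 UMIs in them. The 25 UMIs of siFXR1-LNA replicate 2 all came from 10% of its NK cells, that is 1 cell. In the unnamed cluster led by Sprr1a, which holds most cells of siFXR1-LNA replicate 1, Lpl was 379 and 166 CPM in siFXR1-LNA replicates 1 and 2, above its 119 and 94.5 CPM in macrophages of the same libraries.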
